A study of Mus musculus with 4 samples.

Results

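Interferon gamma and the genes of its receptor pathway were described across the immune cells of a mouse tumour. The 6 genes are Ifng, which encodes the cytokine, Ifngr1 and Ifngr2, which encode the ligand-binding and the signalling chain of its receptor, Jak1 and Jak2, the kinases bound to those chains, and Socs1, an inhibitor of the kinases that the pathway induces. They were found by symbol, and all 6 were present among the 31253 features of every library. On GRCm38 the gene models lie at chr10:118441046-118445892 (Ifng), chr10:19591949-19610229 (Ifngr1), chr16:91547072-91565623 (Ifngr2), chr4:101152367-101265282 (Jak1), chr19:29251828-29313080 (Jak2) and chr16:10782240-10785536 (Socs1), and the 3' assay counts tags near their ends. The group was selected on measured values, namely the higher Ifng UMIs of the libraries labelled cKO over all T-like cells. Ifng in T-like cells is therefore given as a description with no test. The genes were also chosen with earlier results of these data known. Tests of Ifng between the labels in other classes, NK-like cells among them, are therefore read as descriptions too.

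The 4 single-cell libraries hold CD45+ cells that were sorted from subcutaneous tumours of MC38, a mouse colon adenocarcinoma line, 16 days after injection. The hosts were 8-week-old untreated mice, WT in 2 libraries and Ufl1 cKO, a conditional deletion of the UFM1 ligase gene, in the other 2. The tumours had been digested with collagenase and the cells frozen and thawed before the 10x Genomics 3' assay. Neither a Cre driver nor the deleted part of Ufl1 is named, and the series title places the loss in T cells. Levels are given as CPM, the UMIs of a gene scaled to a common total of UMIs of the class in a library. Ufl1 was at 16.5 and 16.2 CPM in T-like cells of the libraries labelled WT and at 14.5 and 19.5 CPM in those labelled cKO. The 3' tags may lie outside the deleted part, so these values do not check the labels. Nothing states whether a library is 1 mouse or a pool, so the tests measure the spread between libraries only.

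The libraries held 7352, 9466, 7885 and 8098 barcodes (WT replicates 1 and 2, then cKO replicates 1 and 2, the order used for every set of 4 values) with 64141857, 77030913, 71702863 and 79747752 UMIs. After filtering 29918 cells were kept, with median depths of 7281, 7018.5, 7167.5 and 8580 UMIs. WT replicate 1 and cKO replicate 2 shared 479 barcodes, against 85 to 104 for the other pairs of libraries, and 411 shallow copies of shared barcodes were removed. Ptprc, which encodes CD45, had a UMI in 80.8% to 88.5% of the cells. Cells were clustered with the 6 genes left out of the variable genes and of the markers, and classes are called "like" a type by their markers. T-like cells numbered 4453, of which 1291 were CD8, 830 conventional CD4, 598 regulatory (Treg), 412 gamma-delta and 1322 of unresolved subset. NK-like cells numbered 4169.

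Interferon gamma is released mainly by activated T and NK cells. It binds IFNGR1, IFNGR2 joins the complex, and JAK1 and JAK2 then start a signal that switches on genes of antigen presentation, guanylate-binding proteins and chemokines such as Cxcl9 and Cxcl10. SOCS1, itself induced by the cytokine, closes the loop by inhibiting the kinases. In T helper 1 cells IFNGR2 is known to be the scarce chain, and its level then limits the response. In tumours the cytokine is known for activating macrophages and dendritic cells and for raising MHC and PD-L1 on the cells it reaches.

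The promoters of 3 of the genes are shown because they are the ligand, the chain that differed most between classes and the feedback gene. Each is from RefSeq on GRCm38.p6 and runs 5' to 3' on the gene's own strand from 250 bases before to 50 bases after the start. Capitals mark TATAAA in Ifng, GGGCGG in Ifngr2 and 2 overlapping copies in Socs1 of a motif made of GAAA, any 2 bases and GAAA.
Ifng, chr10:118440796-118441095, plus strand: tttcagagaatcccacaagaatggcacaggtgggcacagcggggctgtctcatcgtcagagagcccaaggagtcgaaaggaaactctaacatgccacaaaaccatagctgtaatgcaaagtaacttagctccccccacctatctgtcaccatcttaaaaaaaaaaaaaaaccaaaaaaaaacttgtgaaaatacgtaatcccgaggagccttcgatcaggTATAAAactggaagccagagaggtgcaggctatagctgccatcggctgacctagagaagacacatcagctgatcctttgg
Ifngr2, chr16:91546809-91547108, plus strand: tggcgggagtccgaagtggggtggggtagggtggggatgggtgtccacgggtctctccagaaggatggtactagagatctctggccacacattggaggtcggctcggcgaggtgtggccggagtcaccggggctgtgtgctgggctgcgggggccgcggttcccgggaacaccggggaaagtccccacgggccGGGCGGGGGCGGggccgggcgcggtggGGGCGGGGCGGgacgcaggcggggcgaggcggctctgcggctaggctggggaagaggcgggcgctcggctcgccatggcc
Socs1, chr16:10785487-10785786, minus strand: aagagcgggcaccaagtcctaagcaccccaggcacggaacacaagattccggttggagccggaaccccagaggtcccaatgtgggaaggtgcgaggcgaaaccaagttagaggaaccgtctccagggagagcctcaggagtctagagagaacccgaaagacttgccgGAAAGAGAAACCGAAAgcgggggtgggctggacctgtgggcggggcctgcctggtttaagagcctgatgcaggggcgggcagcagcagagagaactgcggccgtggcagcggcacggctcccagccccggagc

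The motifs were searched on both strands of these windows. The Ifng window, at 46% G and C, held 1 TATAAA 30 bases before the start and 1 TTCNNNGAA 249 bases before it. The Ifngr2 window, at 74.33% G and C, held 4 copies of GGGCGG, the core bound by Sp1, and neither of those motifs. The Socs1 window, at 63.33% G and C, held 2 copies of the spaced GAAA pair, the core of an interferon-stimulated element, 83 and 77 bases before the start, and 2 copies of GGGCGG. Among the 32851 promoter windows of the table, whose median G and C content was 52.67%, TATAAA was in 13.62%, TTCNNNGAA in 8.298%, the spaced GAAA pair in 3.443%, GGGCGG in 35.66% and TGACGTCA in 1.79%. The windows of Ifngr1, Jak1 and Jak2 held 2, 1 and 3 copies of GGGCGG, and that of Jak1 held 1 TGACGTCA. A match describes letters only.

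Ifng was a transcript of CD8 T-like, CD4 T-like and NK-like cells, and a small number of cells carried much of it. Of 20916 Ifng UMIs, 49.1% lay in T-like cells, which made up 14.9% of the cells, and 37.8% lay in NK-like cells, which made up 13.9%. CD8 T-like cells alone held 24.2%, T-like cells of unresolved subset 14.6%, conventional CD4 cells 7.87%, Treg-like cells 1.77% and gamma-delta cells 0.593%. A T-like cluster that also carried myeloid RNA held 5.25%, and clusters left unnamed held 3.59%. The 530 cells with at least 10 Ifng UMIs made up 1.77% of all cells and held 49.6% of the Ifng UMIs, and the richest single cell held 180.

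By class, the Ifng level over the 4 libraries was 492 ± 108 CPM (mean ± SD) in CD8 T-like cells, 356 ± 71.0 CPM in conventional CD4 T-like cells and 235 ± 83.6 CPM in NK-like cells. Treg-like cells followed with 118 ± 91.4 CPM and gamma-delta T-like cells with 64.5 ± 43.9 CPM. The library values of CD8 and CD4 cells overlapped, as did those of CD4 and NK-like cells, NK-like and Treg-like cells, and Treg-like and gamma-delta cells. Within each of the 4 libraries, however, CD4 cells were above NK-like cells and NK-like cells above Treg-like cells, while the order of CD8 and CD4 cells and that of Treg-like and gamma-delta cells changed between libraries. The gamma-delta value rested on few cells. In WT replicate 2 1 gamma-delta cell held 67 of the 69 Ifng UMIs. In CD8 T-like cells of WT replicate 1 1 cell held 180 UMIs.

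Classes without a known Ifng programme set the background. B-like cells were at 9.42, 4.88, 21.9 and 5.14 CPM and monocyte-like cells at 3.24, 1.33, 3.62 and 2.62 CPM. To compare shares of positive cells at 1 depth, each cell was thinned to 3000 UMIs and shallower cells were left out, which kept 5747, 7183, 6144 and 6261 cells. At that depth an Ifng UMI was found in 1.02% to 2.41% of B-like and 0.306% to 1.4% of monocyte-like cells. The same share was 39.4% to 56.6% in CD8 T-like, 17.0% to 35.3% in conventional CD4 T-like, 24.5% to 40.5% in NK-like, 9.68% to 22.1% in Treg-like and 2.20% to 5.26% in gamma-delta T-like cells. Gamma-delta cells were thus the T-like class nearest to the background.

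**Figure D1:**
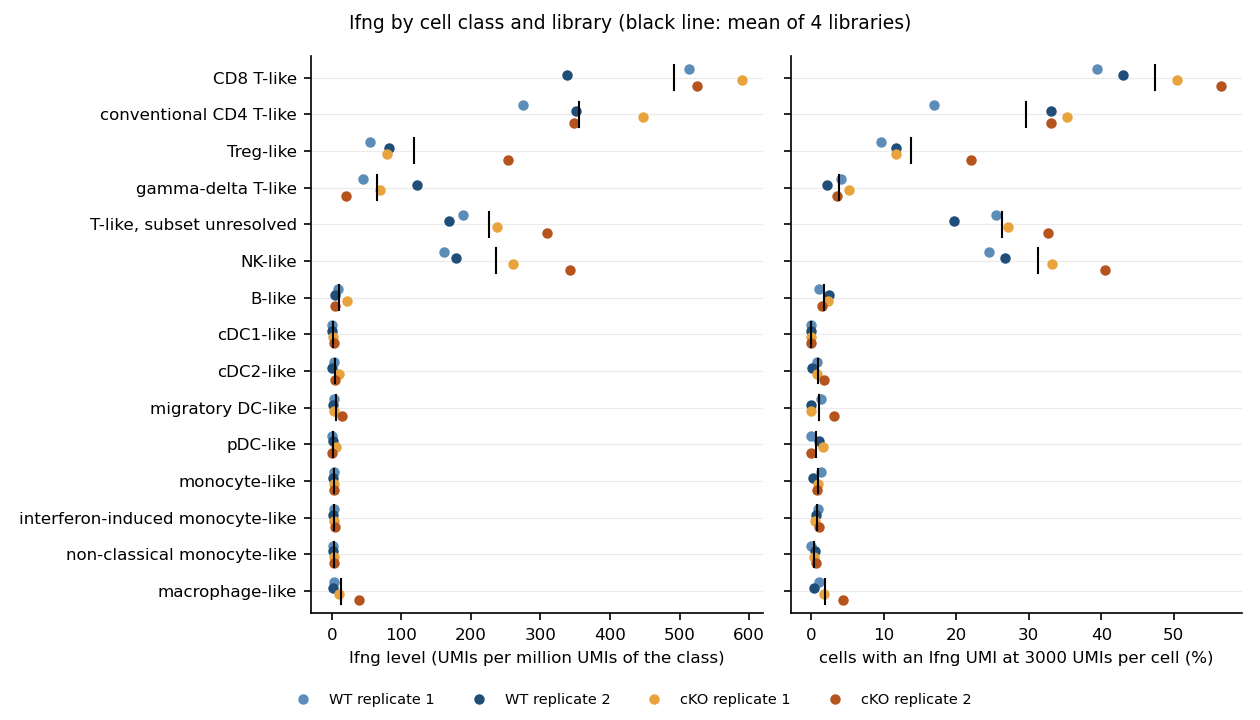
Ifng in 15 cell classes, as CPM of the class (left) and as the percent of cells with an Ifng UMI after thinning to 3000 UMIs (right). Each dot is a library, coloured by its label, and the black line is the mean of the 4. The CD8, CD4, unresolved T-like and NK-like classes stand apart from B-like and myeloid classes on both axes.

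In all T-like cells, the values that chose the genes were 240 and 241 CPM in the libraries labelled WT and 337 and 367 CPM in those labelled cKO. The groups did not overlap, and the fitted log2 difference was 0.50 ± 0.10 (SE). The share of T-like cells with an Ifng UMI at 3000 UMIs was 23.1% and 27.6% in WT against 31.0% and 36.5% in cKO, and without thinning it was 30.1% and 37.8% against 38.5% and 48.2%. The Ifng UMIs in each such cell were 2.97 ± 0.67 (SD, n = 2) in WT and 3.11 ± 0.21 in cKO. Without thinning that level was 5.92 and 4.86 UMIs in WT against 7.07 and 6.04 in cKO. The share of positive cells was higher in both cKO libraries at either depth, and the level per positive cell was so only without thinning.

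Among the subsets the direction was not the same. CD8 T-like cells were at 514, 338, 590 and 525 CPM, with shares of 39.4%, 43.0%, 50.4% and 56.6% of thinned cells. The cKO shares were the higher ones and the CPM ranges came close, with a log2 difference of 0.35 ± 0.22 that ran from 0.10 to 0.65 as single libraries were left out. Within the class, a cluster led by Gzmk, an effector-memory granzyme, held 274, 215, 293 and 493 CPM of Ifng. The cluster led by Pdcd1, which encodes PD-1, held 1647, 376, 895 and 545 CPM, the first value from 14 cells with 308 UMIs. RNA of the NK-lineage list was at 559, 772, 871 and 1765 CPM in the Gzmk-led cluster and at 544, 293, 637 and 789 CPM in all CD8 T-like cells, higher in both cKO libraries, and its part was not tested. The 6 genes of that list are Ncr1, Klrb1c, Klra4, Klra8, Klre1 and the granzyme gene Gzma. Ncr1 and Klrb1c were together at 20.7 CPM in the Gzmk-led cluster, against 619 to 1280 CPM in the NK-like clusters. Conventional CD4 cells were at 275, 351, 448 and 349 CPM and 17.0%, 33.02%, 35.3% and 33.005% of cells, so the groups overlapped (0.33 ± 0.18, from 0.11 to 0.54 with single libraries left out).

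Treg-like cells, which suppress other T cells and usually make little of the cytokine, were at 55.2, 82.0, 80.2 and 254 CPM. Only cKO replicate 2 stood above the others, and the log2 difference of 1.19 ± 0.41 was 0.12 without it. RNA of NK-lineage genes in the same class was at 41.8, 51.7, 56.3 and 115 CPM, also highest in that library, and its part in the result was not tested. Ncr1 and Klrb1c of that list were together at 5.65 CPM in the class. In gamma-delta cells Ifng was at 44.6, 123, 69.8 and 20.7 CPM, the log2 difference was −1.25 ± 0.54, and it ranged from −2.06 to −0.22 as single libraries were left out. T-like cells of unresolved subset were at 189, 169, 238 and 310 CPM (0.55 ± 0.13), with no overlap. RNA of the list of dissociation and heat shock genes, which cell handling can raise, was at 11523, 9522, 14128 and 12357 CPM in all T-like cells and was higher in both libraries labelled cKO. Its part in the Ifng values was not tested.

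NK-like cells held 161, 178, 260 and 343 CPM of Ifng, so both libraries labelled cKO were above both labelled WT. Ifng was tested there, but the genes were chosen with earlier results of these data known, so its p-values are descriptions. The log2 fold change was 0.77 ± 0.16, with an edgeR quasi-likelihood p of 0.00039 before and 0.998 after Benjamini-Hochberg adjustment over 10576 genes. DESeq2 gave the same fold change with an adjusted p of 7.6e-04. In edgeR the call was also made without WT replicate 2 (0.91, adjusted p = 0.0032) and without cKO replicate 1 (0.95, adjusted p = 0.012), so it depended on the tool and on the libraries used. The share of thinned NK-like cells with an Ifng UMI was 24.5% and 26.7% in WT against 33.2% and 40.5% in cKO. Without thinning it was 35.6% and 39.4% against 47.9% and 50.8%, at median depths of 5540, 7379, 6674 and 5934 UMIs. The thinned difference was 11.2 percentage points, between 7.61 and 14.9 as single libraries were left out (exact two-sided permutation p = 0.333, the smallest that 2 against 2 libraries allow).

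Among NK-like cells the positive cells held 2.24, 2.72, 2.49 and 2.70 Ifng UMIs each at 3000 UMIs, where the groups overlapped, and 3.44, 4.21, 4.89 and 5.42 without thinning, where both cKO libraries were higher. Without thinning, cells with at least 10 Ifng UMIs numbered 42, 26, 79 and 59, or 2.69%, 4.36%, 6.04% and 8.39% of NK-like cells. CD8 T-like cells showed a like order, with 4.85%, 6.95%, 14.2% and 11.96%. A tail of cells rich in Ifng was thus larger in both libraries labelled cKO, in both classes. NK-like clusters led by Gzmc, a granzyme that NK cells make after stimulation by cytokines, held 111, 123, 208 and 257 CPM (0.93 ± 0.12, edgeR adjusted p = 0.078). DESeq2 called that difference (0.92, adjusted p = 5.7e-07), and so did edgeR without WT replicate 1 (0.83, adjusted p = 0.047), without cKO replicate 1 (1.06, adjusted p = 7.9e-05) or without cKO replicate 2 (0.80, adjusted p = 0.0013). Dissociation-list RNA in NK-like cells was at 7483, 7129, 8833 and 8734 CPM and was again higher in cKO, and its part was not tested.

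**Figure D2:**
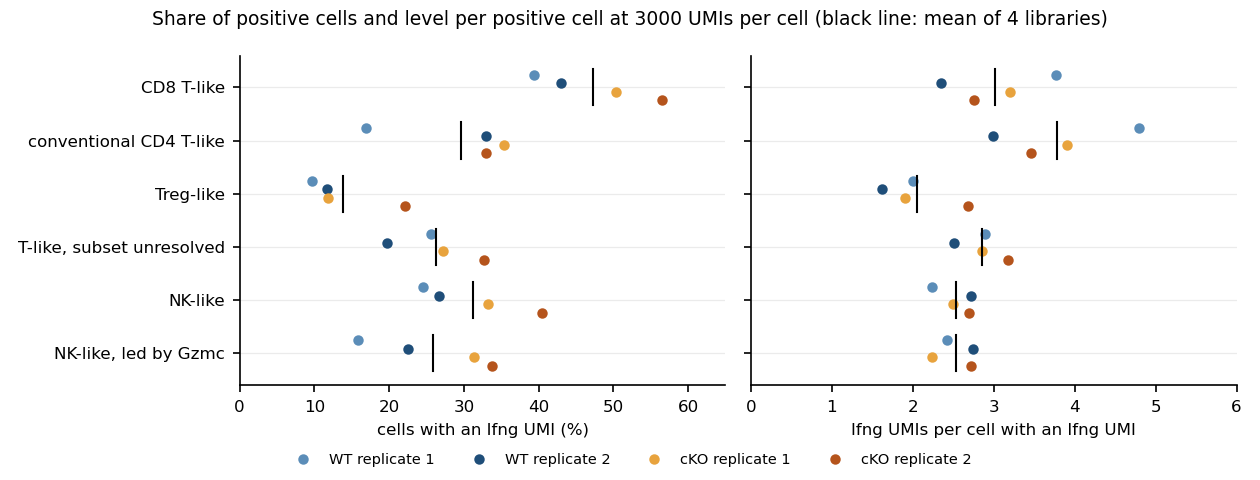
Share of cells with an Ifng UMI (left, percent) and Ifng UMIs per positive cell (right), both after thinning each cell to 3000 UMIs, in 6 T-like and NK-like classes. Each dot is a library and the black line is the mean of the 4. The cKO libraries lie to the right of the WT libraries on the left axis in CD8, unresolved and NK-like cells, and the colours mix on the right axis.

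In macrophage-like cells Ifng was low and uneven, at 2.55, 2.36, 10.5 and 39.6 CPM, with 1.08%, 0.351%, 1.83% and 4.37% of thinned cells positive. The log2 fold change was 3.25 ± 0.59 (edgeR adjusted p = 0.115). It was called without cKO replicate 1 (3.94, adjusted p = 0.0013) and without cKO replicate 2 (2.11, adjusted p = 0.017), and it was 1.20 (adjusted p = 1.00) with doublets kept. RNA of the T-lineage list moved with it in the same cells, at 41.8, 36.1, 107 and 261 CPM. Of the 116 macrophage-like cells with an Ifng UMI, 76 (65.5%) also held a UMI of a T-lineage or NK-lineage gene, against 19.5% of the other macrophage-like cells, and cells without such a UMI held 42 of the 335 Ifng UMIs. The T cell genes Lck, Cd4, Lat, Ltb and Cd5 were the 5 genes that the test called in this class. In cDC2-like cells, a type of dendritic cell, Ifng was at 3.04, 1.07, 10.4 and 4.79 CPM (1.78 ± 0.50, adjusted p = 0.955, called without cKO replicate 2 at 2.27 with adjusted p = 0.013, 1.09 with cKO replicate 1 left out, and 2.71 and 1.30 with WT replicate 1 and the other WT library left out), beside T-lineage RNA at 16.0, 19.3, 40.4 and 62.7 CPM.

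Over all members, 18 class fits gave 95 tests between the libraries labelled cKO and WT, and edgeR called none of them at an adjusted p of 0.05. At an unadjusted p of 0.05 edgeR had 5, all of them Ifng, and DESeq2 called 2, Ifng in NK-like cells and in those led by Gzmc. These Ifng results are read as descriptions. Calls were as rare among all genes. The share of all tested genes called was 0.0275% in Treg-like cells, where 2 of 7264 passed, 0.0126% in conventional CD4 cells, 0.0404% in cDC1-like cells, 0.0534% in migratory dendritic cells, 0.00987% in interferon-induced monocytes, 0.0476% in macrophages and 0.0993% in a mixed cluster of monocytes and macrophages. It was 0% in the other 11 fits, which are all T-like, CD8, unresolved T-like, gamma-delta, NK-like, Gzmc-led NK-like, B-like, cDC2-like, pDC-like, monocyte-like and non-classical monocyte-like cells. Between 105 and 672 genes of a fit had an unadjusted p under 0.05, and DESeq2 called 0 to 41. With simulated counts at this size the same fit recovered 80 of 100 genes changed by 1 on the log2 scale in all T-like cells and 81 of 96 in NK-like cells. The simulation gave every gene the same set dispersion and changed only genes above a count minimum. Its shares therefore do not give the power of the real fits, and the absence of calls does not exclude changes of that size.

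The ligand-binding chain Ifngr1 was highest in the T-like and NK-like classes of these tumours. Its level was 1033 ± 103 CPM in Treg-like cells, 834 ± 81 CPM in conventional CD4, 776 ± 103 CPM in NK-like, 717 ± 155 CPM in gamma-delta and 561 ± 61 CPM in CD8 T-like cells. Non-classical monocytes (387 ± 46 CPM), cDC2-like cells (336 ± 28 CPM) and monocytes (305 ± 39 CPM) came next, then macrophages (191 ± 21 CPM), cDC1-like cells (185 ± 18 CPM), interferon-induced monocytes (168 ± 10 CPM) and B-like cells (161 ± 32 CPM). Migratory dendritic cells at 89 ± 16 CPM and plasmacytoid dendritic cells (pDC) at 45 ± 11 CPM were lowest of the classes named here. Library values of neighbours overlapped all along the T-like and NK-like classes, among non-classical monocytes, cDC2-like cells and monocytes, and among macrophages, cDC1-like, interferon-induced monocyte and B-like cells, so the order inside those groups is not set. After thinning 80.7% to 86.4% of NK-like cells, 80.6% to 90.6% of Treg-like cells and 67.4% to 77.9% of CD8 T-like cells held an Ifngr1 UMI, against 27.7% to 36.3% of macrophages and 6.76% to 11.96% of pDC-like cells.

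No fit called Ifngr1 between the genotype labels. In Treg-like cells it was at 894, 1139, 1066 and 1033 CPM, in NK-like cells at 863, 628, 794 and 820 CPM, and in macrophages at 195, 175, 176 and 219 CPM. In each of these the groups overlapped. In TMM-scaled CPM they did not in CD8 T-like cells, at 641, 570, 497 and 545, where both cKO libraries were lower. The same order held in B-like, monocyte-like and non-classical monocyte-like cells and in the mixed monocyte and macrophage cluster. In cDC1-like and migratory dendritic cells both cKO libraries were the higher ones. Conventional CD4 cells were at 933, 861, 799 and 744 CPM, lower in both libraries labelled cKO (log2 −0.23 ± 0.13, adjusted p = 1.00), and 88.4%, 86.3%, 80.6% and 80.8% of their thinned cells held a UMI. Over 18 fits the log2 fold change ran from −0.34 in B-like to 0.39 in migratory dendritic cells, with 95% limits between −0.79 and 0.99, and the lowest adjusted p was 0.934. NK-like cells led by Gzmc held 421, 428, 428 and 424 CPM, below the whole NK-like class in every library.

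The signalling chain Ifngr2 had another order, with monocytes, macrophages and dendritic cells above the T-like and NK-like classes other than gamma-delta cells. Non-classical monocytes, with the highest mean, also had the most Ifngr1 of the named classes outside T-like and NK-like cells. It was at 180 ± 16 CPM in non-classical monocytes, 168 ± 19 CPM in pDC-like cells, 163 ± 13 CPM in interferon-induced monocytes, 160 ± 21 CPM in monocytes and 151 ± 13 CPM in macrophages. These 5 overlapped in their library values. cDC2-like and migratory dendritic cells were both at 128 CPM, gamma-delta T-like cells at 117 ± 23 CPM, cDC1-like cells at 109 ± 6 CPM and B-like cells at 82 ± 16 CPM. Conventional CD4 cells held 38.0, 34.7, 33.6 and 31.7 CPM and Treg-like cells 24.7, 19.7, 28.1 and 16.4 CPM. In CD8 T-like cells it was at 3.74, 1.70, 2.72 and 1.27 CPM, from 4, 8, 4 and 5 UMIs, and in NK-like cells at 1.60, 1.802, 1.02 and 1.06 CPM, from 19, 10, 12 and 6 UMIs. CD8 T-like and NK-like cells, which together held most of the Ifng UMIs, were therefore the classes with the least Ifngr2, while gamma-delta cells, the T-like class with the least Ifng, held 105, 134, 90.4 and 139 CPM.

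The few Ifngr2 UMIs of NK-like and CD8 T-like cells were read beside myeloid RNA, since myeloid cells hold the gene. Of the 42 NK-like cells with an Ifngr2 UMI, 100% also held a UMI of the myeloid list, as did 98.9% of all NK-like cells, and of the 19 such CD8 T-like cells 94.7% did, against 85.6% of all. That list of 10 genes takes in Fcer1g and summed to between 2985 and 3143 CPM in NK-like cells. C1qa and Lyz2 of the list were together at 20.6 to 176 CPM in the NK-like clusters. With nearly every NK-like cell positive, the list cannot mark those that carry myeloid RNA. Of the 110 conventional CD4 cells with an Ifngr2 UMI 78.2% held a myeloid UMI, against 78.1% of all, and of the 154 such gamma-delta cells 89.0% did, against 88.3%. The part of free RNA in these counts was not tested. Counted against its partner, Ifngr2 had 0.182 UMIs for every 100 of Ifngr1 in NK-like cells (0.129 to 0.287 over the libraries), 0.420 in CD8 T-like, 2.18 in Treg-like, 4.14 in conventional CD4 and 17.1 in gamma-delta cells. The ratio was 38.2 in cDC2-like cells, 46.8 in non-classical monocytes, 52.2 in B-like cells, 52.7 in monocytes, 59.2 in cDC1-like cells, 79.2 in macrophages, 97.0 in interferon-induced monocytes, 147 in migratory dendritic cells and 385 in pDC-like cells. This is an order of ratios between classes, since UMIs of different genes do not measure their levels on 1 scale.

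UMIs of both chains in the same thinned cell were found in 0.375% of NK-like and 0.413% of CD8 T-like cells, 4.10% of Treg-like and 7.42% of conventional CD4 cells. The share was 21.4% in gamma-delta cells and in monocytes, 27.5% in non-classical monocytes, 18.5% in cDC2-like cells and 11.8% in macrophages. Ifngr2 did not pass a test between the labels in any of 16 fits, and the log2 fold change ran from −0.72 in NK-like to 0.29 in unresolved T-like cells, with 95% limits from −1.78 to 1.06. CD8 T-like and Gzmc-led NK-like cells had too few Ifngr2 UMIs to be tested.

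**Figure D3:**
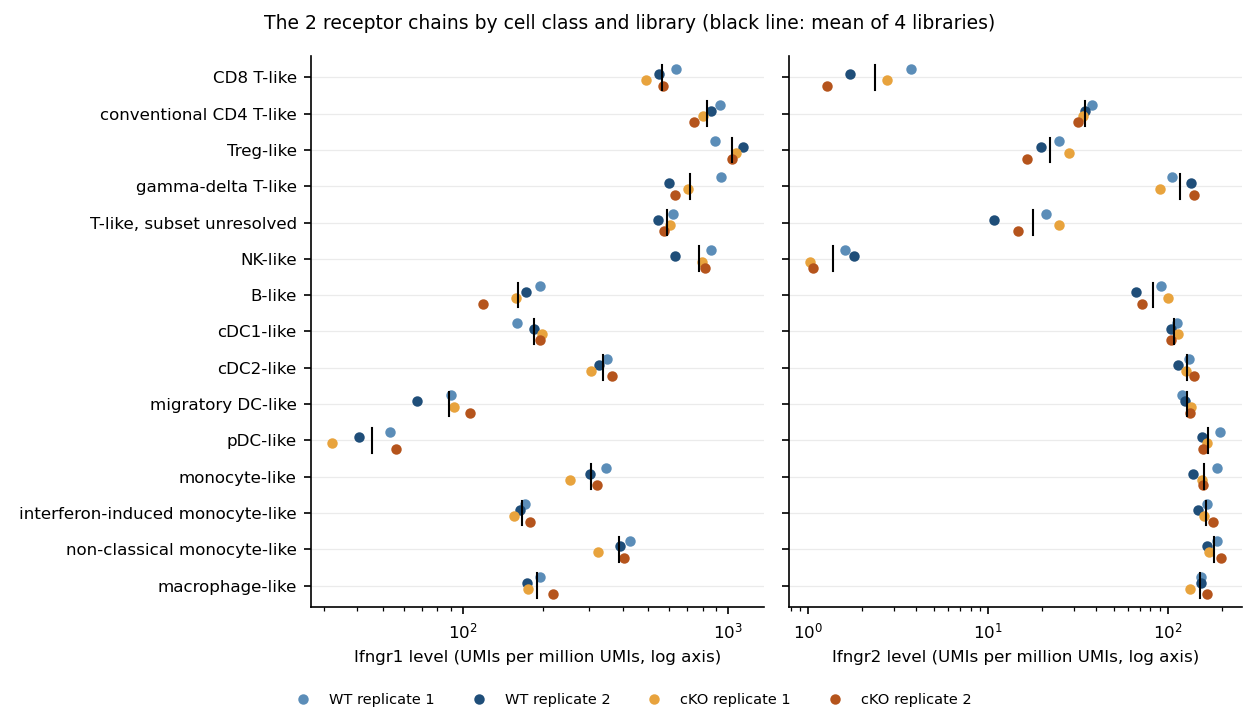
Ifngr1 (left) and Ifngr2 (right) in 15 cell classes as CPM of the class, on log axes. Each dot is a library and the black line is the mean of the 4. Ifngr1 is highest in T-like and NK-like classes, and Ifngr2 is lowest in NK-like and CD8 T-like cells, at under 4 CPM in every library.

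Both kinases had their highest mean in mast-like cells and differed in their order over the other classes. The mast-like class held 43, 12, 48 and 19 cells, below the minimum of 20 for the fits in both replicates numbered 2. Its mean ± SD of Jak1 took in the NK-like mean, so that first place is not set. Jak1, which binds IFNGR1 and also serves the common gamma chain and type I interferon receptors, was at 486 ± 112 CPM in mast-like cells, 422 ± 31 CPM in NK-like cells and between 265 and 283 CPM in CD8, CD4, Treg-like, gamma-delta and B-like cells. Macrophages were at 80 ± 16 CPM and cDC1-like cells at 61 ± 2 CPM. In NK-like cells Jak1 was at 458, 383, 428 and 418 CPM, and in macrophages at 78.9, 66.3, 72.4 and 103 CPM, with the groups overlapping in both. A Jak1 UMI was found in 67.0% to 73.5% of thinned NK-like cells. Over 18 fits its log2 fold change stayed between −0.15 in conventional CD4 and 0.26 in pDC-like cells (95% limits −0.67 to 0.71).

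Jak2, which binds IFNGR2 and serves the receptors of IL-12, GM-CSF and other cytokines, was highest in mast-like cells (527 ± 152 CPM) and migratory dendritic cells (364 ± 62 CPM). It was at 151 CPM in cDC2-like, 124 CPM in monocyte-like and 121 CPM in cDC1-like cells, and low in NK-like (42 ± 5 CPM), CD8 T-like (39 ± 7 CPM) and macrophage-like cells (23 ± 4 CPM). In migratory dendritic cells it was at 443, 380, 322 and 309 CPM, lower in both libraries labelled cKO, with a UMI in 69.4%, 64.3%, 50.8% and 45.3% of thinned cells. The test did not call that difference (log2 −0.33 ± 0.23, adjusted p = 0.999). In monocytes the higher values were in replicate 1 of each label, at 155, 105, 153 and 82.7 CPM. In macrophages Jak2 was at 20.4, 20.1, 23.7 and 29.2 CPM (0.34 ± 0.15, adjusted p = 0.904), and the direction turned to −0.086 with a higher depth minimum and to −0.028 with shared barcodes kept.

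Socs1, the feedback gene, was highest in gamma-delta T-like cells at 398 ± 76 CPM. Treg-like (301 ± 76 CPM), conventional CD4 (292 ± 101 CPM), CD8 T-like (243 ± 57 CPM) and interferon-induced monocyte-like cells (219 ± 33 CPM) followed, their library values overlapping. NK-like cells were at 163 ± 15 CPM, and macrophages, cDC1-like and pDC-like cells were near 50, at 52 ± 12, 51 ± 10 and 49 ± 7 CPM. In each T-like subset WT replicate 2 was the highest library, with 503 CPM in gamma-delta, 434 CPM in conventional CD4, 407 CPM in Treg-like and 316 CPM in CD8 T-like cells. Conventional CD4 cells were at 211, 434, 228 and 296 CPM, so the WT libraries lay on either side of both cKO libraries. In these subsets the WT libraries lay further apart from each other than the means of the labels did.

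Socs1 was called between the labels in no fit with all 4 libraries, with log2 fold changes from −0.44 in migratory dendritic to 0.52 in B-like cells (95% limits −1.02 to 1.56). Single libraries decided it in a pair of classes. In conventional CD4 cells it was −0.35 ± 0.25 (adjusted p = 1.00), and without WT replicate 1 it was called at −0.76 (adjusted p = 0.021). In B-like cells, at 67.5, 84.6, 56.1 and 144 CPM, it was called at 1.04 without cKO replicate 1 (adjusted p = 0.0081). Shares of thinned positive cells gave no further call, since 2 against 2 libraries cannot go below p = 0.333 in the exact permutation test.

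A test of whether the cKO effect differed between NK-like and all T-like cells called 0 of 11387 genes in edgeR (0%), with 229 at an unadjusted p under 0.05, and was not run in DESeq2. The interaction was −0.74 ± 0.45 for Ifngr2, 0.17 ± 0.11 for Ifngr1, −0.04 ± 0.11 for Jak1, −0.09 ± 0.15 for Jak2 and 0.16 ± 0.12 for Socs1 (log2, adjusted p = 1.00 for each). With single libraries left out, a setting chosen after seeing the data, Ifngr2 ran from −1.39 to −0.42 and Ifngr1 from 0.04 to 0.28. For Ifng it was 0.25 ± 0.13, given as a description. Over all genes 39 were called once WT replicate 1 was dropped and 0 once the other WT library was, while dropping cKO replicate 1 gave 3 and dropping the other cKO library 7.

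Genes around the 6 were read from lists of the pathway. The lists were chosen with earlier results of these data known, so counts of their genes are descriptions. No gene of the list of 20 signalling and feedback genes, which holds Irf1, the other SOCS genes and the phosphatases, passed the edgeR test in any class. In macrophages 17 of 20 were higher in cKO (median log2 0.20), with the smallest p for Cish, a feedback gene of STAT5 (0.98 ± 0.20, adjusted p = 0.172). T-lineage RNA was higher in cKO in that class too, and its part was not tested. In Treg-like cells 16 of 20 were higher (0.25), in NK-like cells 16 of 20 (0.13), in all T-like cells 16 of 20 (0.11) and in cDC2-like cells 16 of 20 (0.10). Conventional CD4 cells had 10 of 20. Among all genes tested, 48.2% to 52.1% were higher in cKO in each class.

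The list of genes that the cytokine induces, also chosen with earlier results known, leaned higher in most myeloid classes, gene by gene below the threshold. Of 40 genes, 39 were among the features. In cDC2-like cells 30 of 35 tested were higher in cKO with a median of 0.32, and 14 had an unadjusted p under 0.05, none of them lower. Of all 10436 genes tested in that class, 423 had an unadjusted edgeR p under 0.05. The smallest p values were those of the GTPase genes Tgtp1, at 29.1, 38.0, 55.6 and 59.9 CPM (0.79 ± 0.15, adjusted p = 0.70), Iigp1, at 22.3, 36.5, 53.2 and 60.9 CPM (0.97 ± 0.21, adjusted p = 0.955), and Irgm2 (0.63 ± 0.15), and of Cd274, which encodes PD-L1, at 51.3, 59.9, 75.6 and 80.2 CPM (0.49 ± 0.12). For Tgtp1, Iigp1 and Cd274 both libraries labelled cKO were above both labelled WT. Left out 1 at a time, the libraries gave 71.4% to 91.4% of the list higher. Dissociation-list RNA in cDC2-like cells was at 23819, 21946, 27992 and 25785 CPM and, like the T-lineage RNA given above, higher in both cKO libraries, and their part was not tested.

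In macrophages 28 of 36 were higher (median 0.20), led by Gbp4 at 14.8, 20.8, 28.0 and 40.3 CPM (0.89 ± 0.22, adjusted p = 0.286), with 73.0% to 86.5% higher as single libraries were left out, in the class where T-lineage RNA was higher in cKO. In the mixed monocyte and macrophage cluster 30 of 36 were higher (0.18), among them Cd274 at 33.2, 46.3, 69.8 and 70.3 CPM (0.83 ± 0.16, adjusted p = 0.127). Monocytes had 29 of 35 (0.14), non-classical monocytes 25 of 33 (0.11) and migratory dendritic cells 25 of 31 (0.27). In migratory dendritic cells NK-lineage RNA was at 28.0, 23.9, 226 and 134 CPM, T-lineage RNA at 12.4, 21.5, 30.3 and 85.3 CPM and dissociation-list RNA at 10310, 7809, 11359 and 14262 CPM, each higher in both cKO libraries, and their part was not tested. Most of that NK-lineage RNA was from 1 gene, Gzma, called higher in this class at 17.1, 22.4, 205 and 121 TMM-scaled CPM. Interferon-induced monocytes, named for leading genes such as Rsad2 and Ifit1, most of which are not on this list, had 22 of 37 (0.05). The lymphocyte classes were closer to even, with 17 of 30 in NK-like (0.08), 18 of 29 in CD8 T-like (0.04), 13 of 28 in conventional CD4 (−0.02) and 13 of 27 in B-like cells (−0.04), but all T-like cells together had 26 of 33 (0.13). Dendritic cells differed among themselves: cDC1-like cells had 15 of 29 (0.02), with Cxcl10 at 137, 111, 209 and 264 CPM (0.92 ± 0.17, adjusted p = 0.161) and Cxcl9 at 253, 248, 192 and 128 CPM (−0.63 ± 0.18, adjusted p = 0.772), chemokines of the same receptor with opposite signs. The macrophage markers C1qa, C1qc and Apoe were called higher in cKO in the cDC1-like class, and their part was not tested.

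**Figure D4:**
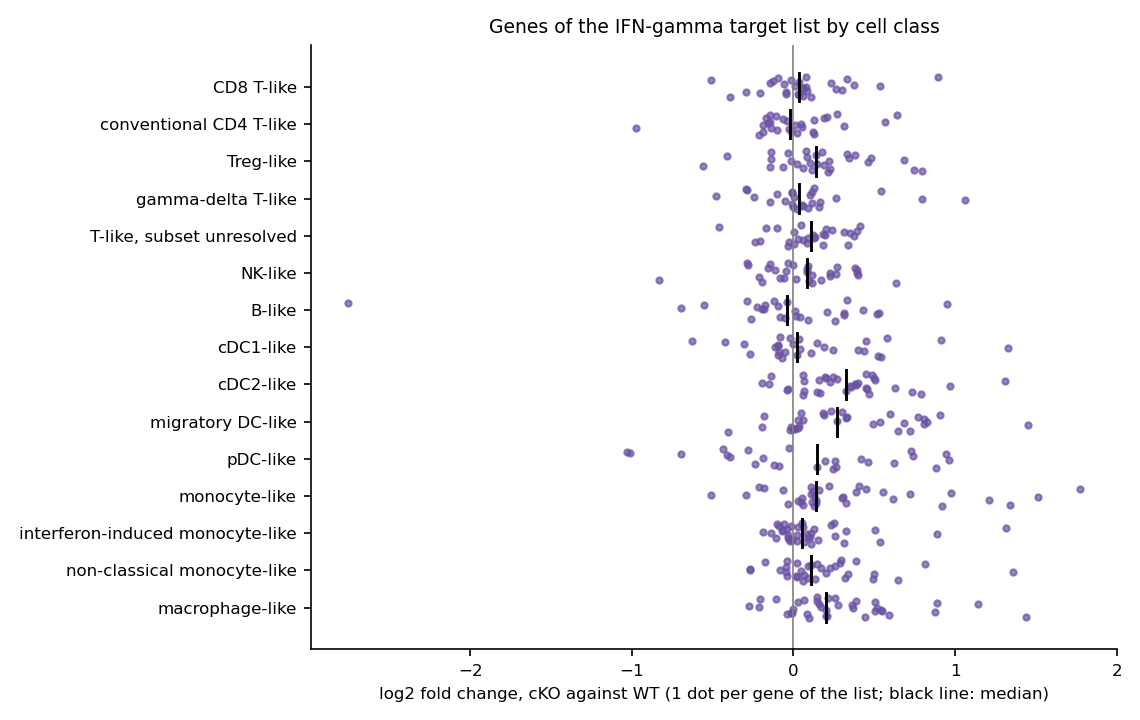
Log2 fold changes of the interferon gamma target list between the libraries labelled cKO and WT in 15 cell classes. Each dot is a gene, the black line is the median of the class, and none of the genes passed the test; the medians lie furthest above 0 in cDC2-like (0.32) and migratory dendritic cells (0.27).

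Of 23 genes that induce Ifng or carry the signal to do so (the IL-12, IL-15, IL-18 and IL-27 systems and their transcription factors), none passed the test in any class. NK-like cells had 14 of 17 higher in cKO (median 0.11). In macrophages 16 of 20 were higher (0.26), with the smallest p for Il2rb, a receptor chain of lymphocytes (1.97 ± 0.34, adjusted p = 0.096), in the class where T-lineage RNA was higher too. In cDC1-like cells 2 of 9 were higher, 1 of them Il27, which encodes a subunit of IL-27, at 1.31, 0.983, 12.1 and 13.4 CPM (3.33 ± 0.67, adjusted p = 0.197). The 3 genes called in that class were the macrophage markers C1qa, at 11.8, 35.4, 120 and 88.9 CPM, C1qc and Apoe. All were higher in cKO, and the part of macrophage RNA was not tested. Of the 10 class II cytokine receptor genes, the family of Ifngr1 and Ifngr2, 4 or 5 were expressed enough to be tested in a class and none was called. In NK-like cells all 4 were higher, led by the IL-10 receptor gene Il10ra (0.40 ± 0.18).

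Cells with an Ifng UMI were then set against cells of the same class and library without one, after thinning to 3000 UMIs, with Ifng itself left out. A cell without a UMI may still express the gene, so the negative group is mixed. In conventional CD4 cells Ifngr2 was lower in the positive cells, at 0, 15.9, 5.23 and 5.40 CPM from 0, 3, 1 and 1 UMIs in 19, 70, 71 and 67 cells, against 51.5, 53.2, 61.9 and 56.7 CPM from 13, 20, 21 and 21 UMIs in 93, 142, 130 and 136 negative cells. Every library showed that direction, with a log2 difference of −2.74 ± 0.54 (edgeR adjusted p = 0.00060) and a range of −3.50 to −2.48 as single libraries were left out. In the same comparison 5.05% of all genes tested were called, 170 of 3369, of which 71 (2.11%) were higher in positive cells. The count of 0 in 19 cells is at the limit of the depth, since it still allows 3 UMIs. Socs1 was at −0.42 ± 0.14 (adjusted p = 0.068) and Ifngr1 at 0.18 ± 0.09 (adjusted p = 0.372) in these cells.

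Of the other genes called in CD4 cells, those with the smallest p are named here. Higher in the positive cells were Nkg7, a gene of cytotoxic granules, at 757, 1095, 1146 and 1209 CPM against 404, 314, 336 and 297 (1.71 ± 0.12), Ly6c2 (1.74), the chemokine gene Ccl5 (1.61), Cd7 (1.57), Ifitm2 (1.31), Dusp2 (1.22), Lgals3 (0.88), Il2rb (0.77), Hspa1b (0.55) and Zfp36l2 (0.49). The effector genes Gzmb (1.55), Pdcd1 (1.17), Cxcr3 (0.97) and Tnf (0.67) and the T helper 1 regulator Tbx21 (1.29 ± 0.26, adjusted p = 0.00091) were called higher as well. Lower were Ccr6, a chemokine receptor of T helper 17 cells, at 0, 0, 10.5 and 0 CPM against 135, 98.3, 82.5 and 154 (−4.92 ± 0.52), the cytokine gene Il22 (−2.84), Aqp3 (−2.91), Serpinb1a (−2.25), Acsbg1 (−1.83), Tmem176b (−1.81), Tmem176a (−1.79), Actn2 (−1.68), Ramp1 (−1.64) and Rps2 (−0.36). Il17a, a T helper 17 cytokine gene looked at after its values were seen, was at 1053, 19.05, 75.1 and 4.98 CPM in positive against 412, 481, 241 and 363 CPM in negative cells. It was thus lower in 3 libraries and higher in WT replicate 1, where the positive group is 19 cells. The class was not split further before the comparison. The lower Ifngr2 in Ifng-positive cells stands beside these differences, and their part was not tested.

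In NK-like cells the ligand-binding chain was the member that differed. Ifngr1 was at 945, 839, 870 and 964 CPM in positive against 1112, 852, 1142 and 1149 CPM in negative cells, lower in all 4 libraries (−0.24 ± 0.06, adjusted p = 0.0051). Without cKO replicate 1 the call was lost (−0.19, adjusted p = 0.176), and the estimates ran from −0.31 to −0.19. Jak1 was at −0.16 ± 0.07 (adjusted p = 0.176), and Socs1 at 0.10 ± 0.09 (adjusted p = 0.646). Of all genes 4.55% were called, 348 of 7648, with 226 (2.96%) higher in positive cells. In CD8 T-like cells no member was called, with Ifngr1 at −0.12 ± 0.09 (adjusted p = 0.868), while 0.687% of all genes were, 32 of 4660, of which 30 (0.644%) were higher.

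Chemokine, immediate early and heat shock genes were among those called higher in Ifng-positive NK-like cells. Ccl3, a chemokine gene, was at 148, 624, 121 and 275 CPM in positive against 28.2, 36.1, 37.9 and 37.2 CPM in negative cells (2.71 ± 0.14). With it rose Ccl4 (1.84), the heat shock gene Hspa1a (1.38), Fos (1.32), Egr1 (1.00) and the cytokine gene Tnf, at 34.4, 33.5, 51.2 and 37.7 CPM against 13.8, 12.98, 11.9 and 7.97 (1.74 ± 0.21). The granzyme gene Gzmc fell by 0.59 on the log2 scale. In CD8 T-like cells Ccl3 was at 286, 120, 333 and 58.4 against 16.4, 21.2, 16.0 and 19.95 CPM (2.90 ± 0.27), and Ccl4 (1.501), Fos (1.01), Hspa1a (0.92) and Egr1 (0.87) rose as well. Tnf there, at 0.72 ± 0.28, did not pass (adjusted p = 0.484). From a list of 10 dissociation and RNA quality genes, Hspa1a, Hspa1b, Fos and Atf3 were called higher in both CD8 T-like and NK-like cells. In conventional CD4 cells Hspa1a and Hspa1b of that list were called higher and mt-Co1 lower. The part of these genes in the comparisons was not tested.

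**Figure D5:**
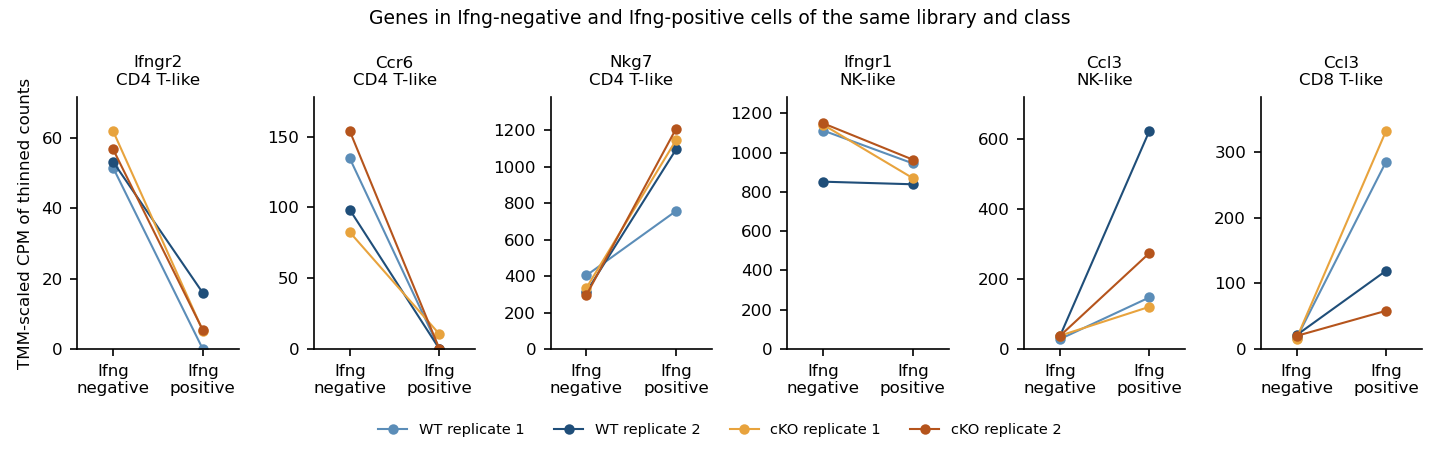
Level of 5 genes in Ifng-negative and Ifng-positive cells of the same library, in TMM-scaled CPM after thinning to 3000 UMIs per cell. Each line is a library, and each panel has its own axis from 0. Ifngr2 and Ccr6 fall to between 0 and 15.9 CPM in positive CD4 cells, Ifngr1 is lower by 0.24 on the log2 scale in positive NK-like cells, and Nkg7 or Ccl3 rises in every library.

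Of the wider activation list, 8 of 39 genes tested were called higher and none lower in Ifng-positive CD8 T-like cells. In conventional CD4 cells 8 were higher and 2 lower of 24, and in NK-like cells 13 were higher and 1 lower of 35. Of the pathway's own genes, most did not pass the test. In NK-like cells 22 of 26 targets were higher in positive cells (median 0.24), with 8 called higher and 1 lower. Those called included the guanylate-binding protein genes Gbp2 (0.62) and Gbp4 (0.63), Gbp7 (0.53), Gbp8 (0.52), Cxcl10 (0.50), Tap1 (0.34) and Icam1 (0.49), with Pdcd1lg2 lower (−0.47). Of the signalling list 15 of 19 were higher, 4 called higher and 2 lower, with Stat2 (0.65), Usp18 (0.67) and Cish (0.27) among those called higher and Stat3 (−0.25) and Ptpn1 (−0.33) lower. In conventional CD4 cells Socs3 (0.59) and Usp18 (0.73) of that list were called higher and the target Tgtp1 lower (−1.12). In CD8 T-like cells no gene of either list was called.

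Positive and negative cells also differed in depth and in cluster. Cells of the Gzmc-led clusters made up 15.2%, 35.7%, 23.0% and 18.7% of the Ifng-positive against 26.2%, 44.8%, 25% and 24.9% of the negative NK-like cells. The part of cluster makeup in the lower Ifngr1 of positive NK-like cells was not tested. In CD8 T-like cells the Pdcd1-led cluster made up 14.3%, 68.9%, 39.7% and 50.4% of positive against 6.98%, 65.6%, 29.9% and 41.3% of negative cells.

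The genes whose level across 16 classes was most like that of each member, by Pearson's r of log2(CPM + 1) over means of 4 libraries among 10177 genes, are given as a description. For Ifng they were Gm2682 (r = 0.977), Trbc1 (0.974), Sh2d1a (0.973), Fasl (0.973) and Lck (0.972), all following the T and NK classes. For Ifngr1 they were Ipcef1 (0.937), Actn4 (0.914), Ptpn22 (0.907), Taf4b (0.899) and Gm28592 (0.899), and for Ifngr2 they were Arhgef11 (0.901), Scpep1 (0.864), Cep170 (0.856), Ly86 (0.852) and Scand1 (0.850). Jak1 was closest to Arhgap45 (0.910), Jak2 to Dapp1 (0.869) and Socs1 to Slc9a3r1 (0.871). Over the 16 T-like and NK-like clusters with at least 50 cells Ifng was closest to Macroh2a1 (0.865), so its profile inside these cells was shared less closely than its profile across classes. Classes share their libraries, and these values carry no test.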

How the data were processed

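The 4 libraries were deposited by the authors as raw UMI counts per gene and barcode, made with Cell Ranger 6.1.1 per the file headers. CASAVA 1.8 and Seurat are in the submitters' processing notes as well. Their genome build is not given in the sources used here. GENCODE M21 on GRCm38 held 99.53% of the feature IDs. The members and gene lists were chosen with earlier results of these data known.

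Barcodes below 300 genes or above 15% mitochondrial UMIs were dropped. Shallow copies of barcodes shared between libraries (a depth ratio of 10) were removed. The doublet caller Scrublet marked 1 cell and so had not worked, and the cells with the highest scores, 0.8% per 1000 cells (2067 in all), were removed instead. Cells were clustered with scanpy 1.11.5 and leidenalg 0.10.2 on 2000 variable genes without the members, 30 components, 20 neighbours and resolution 1, then named by markers. Levels are UMIs of a gene per class, scaled to CPM. For shares each cell was thinned to 3000 UMIs. The 95% limits of log2 fold changes come from the edgeR fits and include the spread between libraries. The limit of 3 UMIs behind a count of 0 covers counting error only.

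Counts summed per library and class (at least 20 cells in each) were tested in R 4.3.3 with edgeR 4.0.16 (TMM, filterByExpr, quasi-likelihood, Benjamini-Hochberg over all genes, threshold 0.05), with DESeq2 1.42.0 as an alternative. Ifng-positive and negative cells were compared the same way on thinned counts, in classes with at least 10 positive cells in each library and with library as a block. Fits were tested on simulated data. Named genes are the members, list genes by smallest p (at most 4 per list and class, or 8 where called), the 5 most alike genes of each member, the 10 called genes with the smallest p in each direction between Ifng-positive and negative cells, and the activation list. From the last 3 sets the text gives a selection.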

Additional observations from a re-analysis of the deposited data

How the results depend on the processing

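Between the labels, 25 genes were called over the 18 class fits together. Counts were 1225 with no filter on low counts, 130 with DESeq2, 11 at clustering resolution 2, 10 with doublets kept, 7 with a minimum of 2000 UMIs per cell, 10 with shared barcodes kept (chosen after seeing the data) and 159 to 688 as single libraries were left out. The mixed monocyte and macrophage cluster, with 10 of the 25 calls, had no fit with doublets kept, the UMI minimum or shared barcodes kept, so those counts are over fewer fits. Calls of the members, 0 in the main fits, were 5 with no filter, 2 with DESeq2, 1 with doublets kept, 1 with the UMI minimum, 1 with shared barcodes kept and 1 to 5 as single libraries were left out. Nothing in the labels pairs the replicate numbers, and the correlation of same-numbered deviations was 0.222 in all T-like, 0.0799 in NK-like, 0.104 in cDC2-like and −0.0248 in macrophage-like cells. With a replicate block 280 genes and 2 members were called, Ifng in Gzmc-led NK-like cells (0.93) and in macrophages (3.41).

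Ifng in NK-like cells was called with no filter (0.77) and DESeq2 (0.77), and leaving out libraries gave 0.57 to 0.95. In Gzmc-led NK-like cells it was called with no filter (0.92), DESeq2 (0.92), doublets kept (1.00), the UMI minimum (1.05) and shared barcodes kept (0.98), and leaving out libraries gave 0.80 to 1.06. The cause was not tested. Between Ifng-positive and negative cells, CD8 T-like calls went from 32 to 18 with DESeq2, 104 without thinning and 7 to 46 with libraries left out. CD4 calls went from 170 to 56 with DESeq2 and 78 to 102, and NK-like calls from 348 to 155, 952 without thinning and 161 to 321. Jak2 in macrophages turned from 0.34 to −0.086 with the UMI minimum and −0.028 with shared barcodes kept. Of the other values, 303 kept their direction and side of the threshold or moved less than their spread, 10 lost a call, 6 gained one and 21 moved further. Depth limits Ifngr2 in NK-like and CD8 T-like cells, with 4 to 19 UMIs in a library.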
